A study of Mus musculus with 21 samples.

Results

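The genes described here make up the mitosis and spindle checkpoint machinery: mitotic kinases, cyclins, kinetochore proteins, spindle motors and cytokinesis proteins. They were taken by name from a list of 40 genes, of which 38 had a row in the deposited table of 11736 genes, and all 38 passed the filter on low values. The expression of Ndc80 and Racgap1 was not analysed here, and only their promoters enter below. The cells were mouse natural killer (NK) cells, cytotoxic lymphocytes of the innate immune system, sorted from spleen and kept in culture with interleukin 15 at 50 ng/ml, a cytokine that sustains NK cells and drives them to divide. The genotypes were a deletion of Ikzf1 (Ikzf1 KO, 4 libraries, S12 to S15), a deletion of Ikzf3 (Ikzf3 KO, 4 libraries, S1 to S4), deletion of both (double knockout, DKO, 3 libraries, S5 to S7), and mice that carried only the Cre recombinase (Cre only, 4 libraries, S16 to S19). Ikzf1 encodes Ikaros and Ikzf3 encodes Aiolos, zinc finger transcription factors of lymphocytes. All knockouts were conditional in NK cells, so every group carried Cre. The promoter that drives Cre and the age and sex of the mice are not given in the sources used here. Column names state genotype alone, and they were read as the cultured samples. The directly sorted Ikzf1 KO and Cre only groups have 3 libraries each, not 4, and no directly sorted Ikzf3 KO or DKO sample is listed.

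In a dividing cell, cyclin A and cyclin B activate the kinase Cdk1, which drives entry into mitosis. Polo-like and Aurora kinases then build the spindle, and the spindle checkpoint holds back the anaphase promoting complex until every chromosome is attached. Most of these genes are transcribed late in the cell cycle, when the MuvB complex with B-Myb and FoxM1 acts on promoters that hold CCAAT boxes and a cell cycle homology region. Their transcripts are scarce in resting lymphocytes. NK cells taken from spleen are mostly resting and enter the cycle when interleukin 15 is supplied.

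Values are RPKM (reads divided by library size in megareads and by kilobases of gene) as the authors deposited them. Ikzf1 stood at 19, 19.9, 18.3 and 19.3 RPKM in Ikzf1 KO, at 38.4, 25.3 and 27.2 RPKM in DKO, and at 57.7, 59.3, 61.1 and 69.4 RPKM in Cre only. Ikzf3 stood at 19.4, 20.2, 15.2 and 16.4 RPKM in Ikzf3 KO, at 23.7, 20.0 and 20.9 RPKM in DKO, and at 45.0, 44.8, 37.7 and 39.6 RPKM in Cre only. Each deleted gene was thus lower in every library that should lack it, without reaching 0 in these whole-gene values. All libraries expressed NK markers, with the 9 markers found of 10 summing to 11100 to 12000 RPKM in Ikzf1 KO, 3080 to 12300 RPKM in Ikzf3 KO, 2420 to 5130 RPKM in DKO and 9920 to 13100 RPKM in Cre only. Granzyme B (Gzmb) was the largest term of these sums, at 753 to 3430 RPKM in DKO and 7960 to 11100 RPKM in Cre only. The mean log2 level of the 9, relative to Cre only, was -0.24, -0.05 and -0.23 in the DKO libraries. Of the 9, 4 were higher and 5 lower in DKO than in Cre only. Depth, recovered from the steps between values, was 8.61 to 21.2 megareads per library, and the fewest reads of any member in any library was 138, counted over the 34 members whose values came out as whole reads. In bulk RNA, a larger share of dividing cells and more of these transcripts per dividing cell cannot be told apart.

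All members but Pttg1 had a higher mean log2 level in each of the 3 knockout groups than in Cre only. The member level, the mean over the 38 genes of log2(RPKM + 0.5) minus the Cre only mean, was 0.82, 0.84, 0.83 and 0.69 in the Ikzf1 KO libraries. It was 0.56, 0.57, 0.34 and 0.36 in Ikzf3 KO and 0.39, 0.55 and 0.51 in DKO. In the Cre only libraries S16, S17, S18 and S19 the member level was -0.21, -0.62, 0.12 and 0.71. S19 therefore lay above every Ikzf3 KO and DKO library and just above S15 of Ikzf1 KO, while S17 lay below all others. The SD of the member level was 0.07 in Ikzf1 KO, 0.13 in Ikzf3 KO, 0.09 in DKO and 0.56 in Cre only.

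The Cre only cultures differed from each other over these genes far more than over the rest of the table. The median SD of a member on the log2 scale was 0.112 in Ikzf1 KO, 0.271 in Ikzf3 KO, 0.133 in DKO and 0.581 in Cre only, whereas over all 10032 genes tested it was 0.123, 0.363, 0.21 and 0.174 in the same groups. S17 had the lowest value of all 15 libraries in 36 of 38 members (94.7%) and in 7.01% of all genes tested. S19 was the highest Cre only library in all 38 members (100%) and in 28.5% of all genes tested. The order S17, S16, S18, S19 from low to high held in 34 of 38 members (89.5%) and in 9.7% of all genes tested. S19 exceeded S17 by a median of 1.40 on the log2 scale, or 2.68-fold, and by 0.16 to 2.04 over single members. T cell markers were not even over the same libraries: the 7 found of 9 had a mean log2 level, relative to the Cre only mean, of 0.49 in S16, 0.53 in S17, -0.35 in S18 and -0.67 in S19. These 7 markers summed to 30.5 to 63.0 RPKM in Ikzf1 KO, 28.1 to 60.3 RPKM in Ikzf3 KO, 133 to 291 RPKM in DKO and 38.0 to 93.9 RPKM in Cre only. Within Cre only, Cd3d, Cd3e, Cd3g, Cd4 and Cd8a were lower in S18 and S19 than in S16 and S17. Cd247, which NK cells also express, ran the other way at 17.5, 17.4, 24.8 and 26.5 RPKM in S16 to S19, and Cd6 was highest in S19 at 0.270 RPKM. Of the T co-receptor genes in Cre only, Cd8a was at 0 in S18 and S19 and Cd4 was at 0 in S19. The part of T cell RNA in the results below was not tested.

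**Figure D1:**
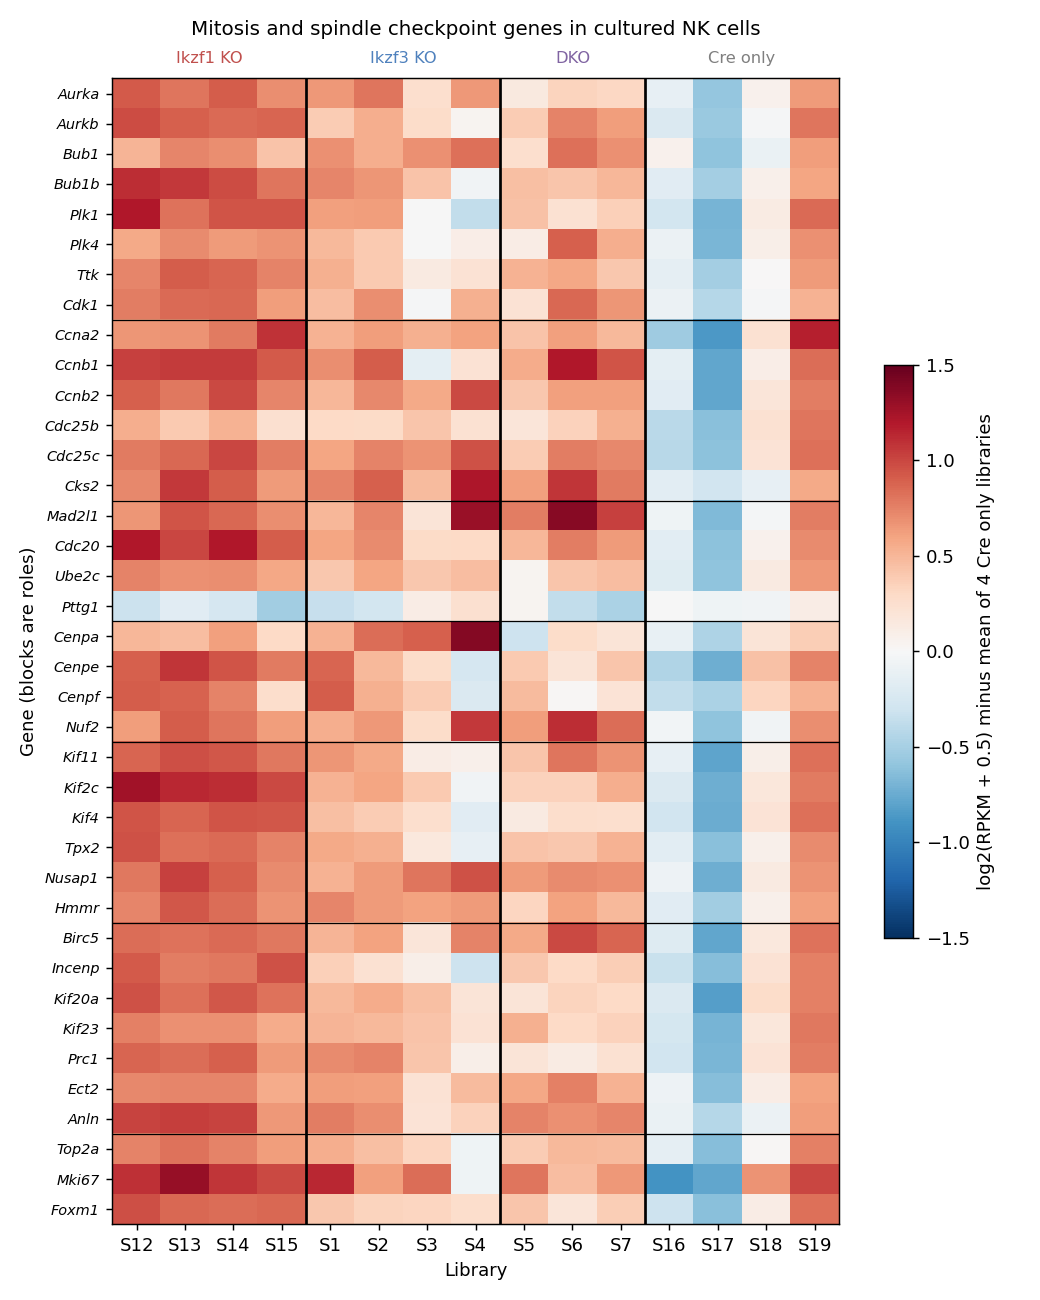
Each row is a member, grouped by role, and each column a library; colour gives log2(RPKM + 0.5) minus the mean of the 4 Cre only libraries. The Ikzf1 KO columns are evenly red over nearly all rows, and the Cre only columns run from blue in S17 to red in S19.

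Promoters of the members were read from RefSeq (GRCm38.p6) as the 250 bases before and 50 bases after each start, 300 bases in all, and 33 of the 40 named genes had an entry. Stretches of 280 bases, ending 30 bases after the start, are shown for Cdc20, Plk1 and Ccnb1, textbook late cell cycle promoters, and for Ccnb2, which was chosen after its values were seen because it was the most abundant cyclin. Capitals mark matches on either strand to the cell cycle homology region (CHR) letters TTTGAA or TTCGAA, to CCAAT, and to TGGGAA, the core bound by Ikaros family proteins. TTCGAA reads the same on both strands, CCAAT and TGGGAA can share a base, and a TGGGAA on the reverse strand appears as TTCCCA.
Cdc20 (chr4:118437314-118437593, minus strand): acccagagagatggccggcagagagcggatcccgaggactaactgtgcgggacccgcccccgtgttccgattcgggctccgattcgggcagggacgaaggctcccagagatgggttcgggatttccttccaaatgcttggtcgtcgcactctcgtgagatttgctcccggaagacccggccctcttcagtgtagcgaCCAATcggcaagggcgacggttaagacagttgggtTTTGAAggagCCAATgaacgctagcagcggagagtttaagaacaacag
Ccnb2 (chr9:70421525-70421804, minus strand): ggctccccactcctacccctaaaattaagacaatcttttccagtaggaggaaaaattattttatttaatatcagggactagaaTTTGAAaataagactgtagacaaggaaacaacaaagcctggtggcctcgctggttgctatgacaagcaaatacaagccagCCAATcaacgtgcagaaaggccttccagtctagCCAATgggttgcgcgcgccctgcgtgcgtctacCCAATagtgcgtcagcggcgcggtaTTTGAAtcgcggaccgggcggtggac
Ccnb1 (chr13:100786457-100786736, minus strand): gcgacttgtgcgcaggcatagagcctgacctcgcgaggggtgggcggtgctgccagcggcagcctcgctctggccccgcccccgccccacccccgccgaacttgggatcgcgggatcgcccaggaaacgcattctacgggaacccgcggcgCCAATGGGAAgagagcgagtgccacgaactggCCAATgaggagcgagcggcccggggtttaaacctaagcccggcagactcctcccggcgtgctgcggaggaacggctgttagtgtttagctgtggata
Plk1 (chr7:122159185-122159464, plus strand): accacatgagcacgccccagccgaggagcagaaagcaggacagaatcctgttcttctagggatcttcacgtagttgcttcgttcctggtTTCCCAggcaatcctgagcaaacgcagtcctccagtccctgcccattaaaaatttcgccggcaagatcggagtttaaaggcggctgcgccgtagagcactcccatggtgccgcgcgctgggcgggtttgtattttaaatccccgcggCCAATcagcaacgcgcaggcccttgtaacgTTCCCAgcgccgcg

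The Cdc20 stretch held TTTGAA at -18 to -13 from the start, between CCAAT boxes that began at -53 and -8. Ccnb2 held CCAAT boxes that began at -87, -54 and -21 and a TTTGAA that began 5 bases after the start. Ccnb1 held 2 CCAAT boxes and no CHR letters in this window, and its upstream CCAAT ran into a TGGGAA. The Ccnb1 gene starts further upstream in the GENCODE annotation, so its window lies partly inside that gene model. Plk1 held CCAAT and, from 31 bases after the start and so beyond the letters shown, TTTGAA. Over the 33 promoters of 300 bases, TTTGAA was found in 22 (66.7%), against 18.1% of the 27025 promoters in the table. TTCGAA was found in 4 (12.1%), against 1.57% of all promoters. CCAAT was found in 24 (72.7%), against 37.9% of all promoters. Either CHR form together with CCAAT was found in 21 (63.6%), against 7.7% of all promoters. TGGGAA was found in 6 (18.2%), against 25.5% of all promoters. These are letter matches and not binding sites, and the members were named as mitotic genes.

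**Figure D2:**
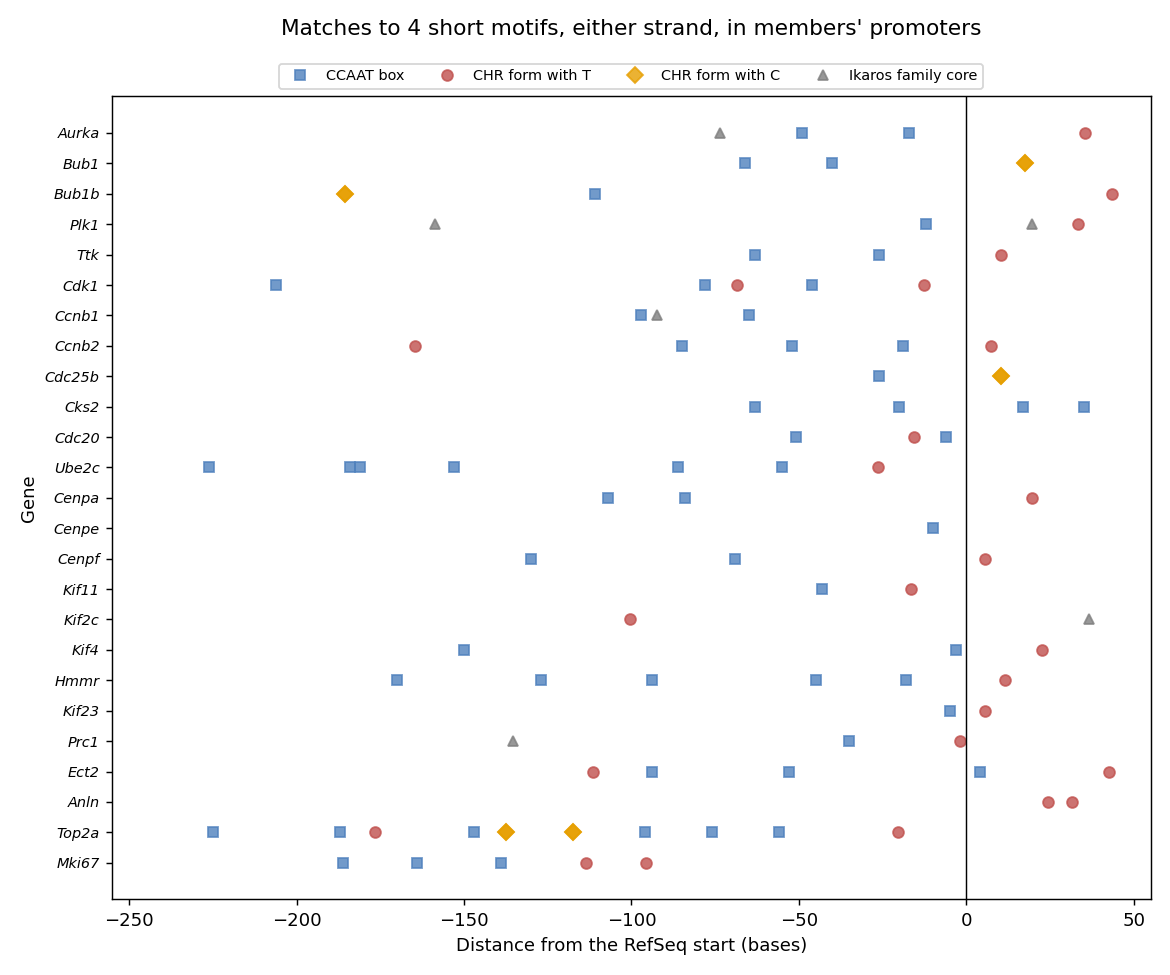
Motif matches in the promoters of the 25 members in the table that had any match, by distance in bases from the RefSeq start; each symbol is a motif and the vertical line is the start. CCAAT boxes lie mostly upstream of the start and CHR matches mostly close to it or just after it.

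The first question is what loss of Ikaros alone does to these genes. Of the 38 members, 17 were higher in Ikzf1 KO, none was lower and 21 did not pass, at an adjusted p below 0.05 in limma over all 10032 genes. Over all genes tested, 3.54% were called higher and 2.78% lower. The median change of the members was 0.83 on the log2 scale (-0.32 to 1.12), against -0.01 for all genes tested. An unadjusted p below 0.05 (limma) was found in 36 of 38 members and in 1980 of 10032 genes tested. By role, 5 of 8 mitotic kinases, 2 of 6 cyclins and Cdk1 regulators, 1 of 4 checkpoint and anaphase promoting complex genes, 0 of 4 centromere and kinetochore genes, 5 of 6 spindle genes, 3 of 7 midzone and cytokinesis genes, and 1 of 3 of the group of Top2a, Mki67 and Foxm1 were higher. All 4 kinetochore genes had an unadjusted p below 0.05 in limma. In 18 members all Ikzf1 KO libraries lay above all Cre only libraries, and in 1, Pttg1, they lay below; over all genes tested these shares were 11.6% and 13.2%. Single markers of other cell types moved both ways in Ikzf1 KO. Cd79b, the 1 of 5 B cell markers in the table, stood at 0.777 to 1.54 RPKM in Ikzf1 KO, against 0.156 to 0.522 RPKM in Cre only (1.08 ± 0.26, adjusted p = 0.0240, limma). Of the 3 myeloid markers found of 5, which summed to 20.7 to 22.7 RPKM in Ikzf1 KO and 15 to 34.6 RPKM in Cre only, Cd14 was higher in Ikzf1 KO (1.32 ± 0.29, adjusted p = 0.0129, limma), at 1.15 to 1.52 RPKM, against 0.0778 to 0.614 RPKM in Cre only. Lyz2 was at 0 in all Cre only libraries, and at 0.188 to 0.473 RPKM in Ikzf1 KO and 0.918 to 1.94 RPKM in DKO. Cd14 stood at 1.52 to 4.65 RPKM in Ikzf3 KO and 0.555 to 1.53 RPKM in DKO. Cd79b stood at 0 to 0.0796 RPKM in Ikzf3 KO and 0.516 to 2.23 RPKM in DKO. Neither gain was thus confined to Ikzf1 KO. Cd68 ran the other way in DKO, at 4.01 to 17 RPKM, against 14.9 to 34 RPKM in Cre only. The part of B and myeloid cells in the result was not tested.

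Cdc20, which activates the anaphase promoting complex and is the target of the spindle checkpoint, was among the largest changes. It stood at 122, 106, 122 and 99.5 RPKM in Ikzf1 KO, against 47.3, 34.3, 55.1 and 86.2 RPKM in Cre only. The groups did not overlap, and S19 was the Cre only library nearest to the knockouts. The change was 1.08 ± 0.21 (log2 fold change ± SE, adjusted p = 0.00785 in limma). Kif2c, a kinesin that takes microtubules apart at the centromere, stood at 30.1, 27.4, 27.1 and 24.9 RPKM in Ikzf1 KO, against 10.5, 7.17, 13.9 and 21.5 RPKM in Cre only. Its groups did not overlap either, and its change of 1.12 ± 0.25 (adjusted p = 0.0138, limma) was the largest among the members. Bub1b, the checkpoint protein BubR1, stood at 64.2, 62.3, 59 and 52.0 RPKM in Ikzf1 KO, against 26.3, 20.6, 31.3 and 45.0 RPKM in Cre only, a change of 0.99 ± 0.21 (adjusted p = 0.0117, limma). Anln, the anillin of the contractile ring, stood at 11.4, 11.6, 11.4 and 8.81 RPKM in Ikzf1 KO, against 5.01, 3.88, 5.06 and 8.59 RPKM in Cre only, a change of 0.93 ± 0.20 (adjusted p = 0.0110, limma). The lowest Ikzf1 KO library of Anln was only just above S19. Cdc20, Bub1b and Anln were called in 25 of 26 alternative analyses and Kif2c in 24 of 26.

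The smallest called changes were of similar size. Cdk1, the central mitotic kinase, averaged 45.4 ± 3.3 RPKM in Ikzf1 KO and 27.1 ± 7.89 RPKM in Cre only (SD, n = 4 each), a change of 0.77 ± 0.20 (log2 ± SE, adjusted p = 0.0351, limma). Hmmr, a spindle assembly protein, changed by 0.79 ± 0.18 (adjusted p = 0.0181), and Ttk, the checkpoint kinase Mps1, by 0.81 ± 0.19 (adjusted p = 0.0186, both in limma). Cks2, a small Cdk1-binding protein, changed by 0.83 ± 0.20 (adjusted p = 0.0223), and Aurka, the centrosomal Aurora kinase, by the same amount (adjusted p = 0.0232, limma).

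Plk1, the kinase with the highest level among the members, did not pass. It stood at 93.2, 71.2, 78.0 and 77.7 RPKM in Ikzf1 KO, against 33.2, 24.6, 43.9 and 72.6 RPKM in Cre only, a log2 difference of 0.98 ± 0.28 (adjusted p = 0.0544, limma), and S13 lay just below S19. Ccnb2, cyclin B2 and the most abundant member, stood at 148, 138, 158 and 132 RPKM in Ikzf1 KO, against 70.5, 46.1, 89.8 and 136 RPKM in Cre only. It did not pass either (0.85 ± 0.24, adjusted p = 0.0515, limma), and S15 lay below S19. Mki67, the proliferation marker Ki-67, stood at 41.8, 48.2, 40.9 and 38.6 RPKM in Ikzf1 KO, against 10.1, 11, 31.1 and 38.9 RPKM in Cre only. Its Cre only libraries fell into a low pair, S16 and S17, and a high pair, S18 and S19, and its difference of 1.11 ± 0.37 did not pass (adjusted p = 0.0948, limma). Top2a, the topoisomerase that untangles sister chromatids, stood at 118, 124, 118 and 109 RPKM in Ikzf1 KO, against 64.0, 45.2, 71.4 and 119 RPKM in Cre only, with S19 inside the knockout range.

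Pttg1, securin, which restrains separase until anaphase, was the member that did not follow the others. It stood at 7.59, 8.46, 7.97 and 6.53 RPKM in Ikzf1 KO, against 9.61, 9.21, 9.28 and 10.4 RPKM in Cre only. Every Ikzf1 KO library lay below every Cre only library, but the log2 difference of -0.32 ± 0.15 did not pass (adjusted p = 0.268, limma). Pttg1 also varied little among the Cre only libraries, with S17 at 9.21 and S19 at 10.4 RPKM. It was called lower in 2 of 26 alternative analyses.

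**Figure D3:**
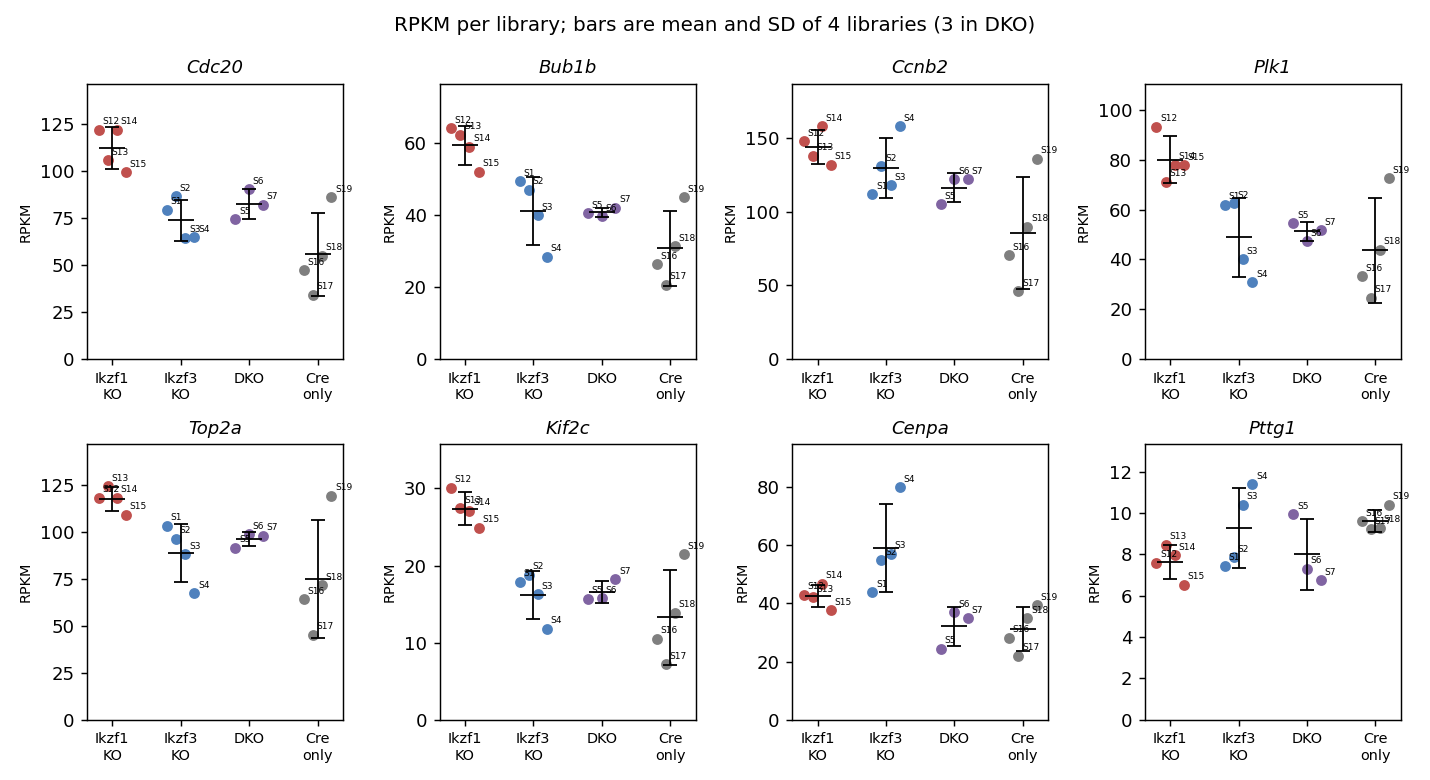
RPKM in each library for 8 members, with the mean and SD of each group as a bar; the vertical axes start at 0. Cdc20, Bub1b and Kif2c show the Ikzf1 KO libraries above all Cre only libraries, Cenpa is highest on average in Ikzf3 KO, and Pttg1 is slightly higher in Cre only than in Ikzf1 KO.

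The number of calls varied with the libraries that were kept. Without S16 and S17 no member passed in Ikzf1 KO against Cre only (limma), and the median change was 0.39. Without S18 and S19, 36 members were higher and the median change was 1.25. Without the Ikzf3 KO libraries S3 and S4, which enter only through the shared spread, 29 were higher, and with library weights 37 were. The share of all genes called higher also rose, from 3.54% to 8.57% without S3 and S4 and to 18% with library weights. Leaving out S19 alone gave 35 members higher, while leaving out S12, S13, S14, S15, S16, S17 or S18 gave 5, 4, 4, 9, 4, 5 and 5. Of all genes, 4.71% were called higher without S19, and 1.93% to 3% without each of the others. Set against single Cre only libraries, the Ikzf1 KO mean differed by a member median of 1.01 from S16 and 1.46 from S17 on the log2 scale. The median difference was 0.71 from S18 and 0.10 from S19.

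The same question for Aiolos uses the same Cre only libraries. In Ikzf3 KO, 5 members were higher, none was lower and 33 did not pass; over all genes tested, 6.3% were called higher and 7.88% lower. The median change of the members was 0.43 on the log2 scale (-0.07 to 0.91), against -0.02 for all genes tested. An unadjusted p below 0.05 (limma) was found in 14 of 38 members and in 3418 of 10032 genes tested, a similar share. Fitted with these 2 groups alone, no member passed in limma, and with library weights 32 did. Of all genes, 1.93% were called higher with these groups alone and 9.84% with library weights. The 5 members were Cenpa, Cks2, Nusap1, Bub1 and Hmmr. Cenpa, the histone H3 variant that marks centromeres, stood at 43.9, 54.9, 57.1 and 79.9 RPKM in Ikzf3 KO, against 28.2, 22.0, 34.9 and 39.4 RPKM in Cre only. It was the only member whose Ikzf3 KO libraries all lay above the Cre only libraries, as in 7.68% of all genes tested, with a change of 0.91 ± 0.20 (adjusted p = 0.0106, limma). Cks2 stood at 46.5, 51.7, 38.6 and 64.7 RPKM in Ikzf3 KO, against 24.6, 22.6, 25.3 and 41.3 RPKM in Cre only, so that S3 fell below S19 and the groups overlapped. Its change was 0.83 ± 0.20 (adjusted p = 0.0148, limma).

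Nusap1, a spindle protein that bundles microtubules, stood at 45.2, 48.9, 54.7 and 61.0 RPKM in Ikzf3 KO, against 29.5, 18.6, 34.4 and 50.2 RPKM in Cre only (0.73 ± 0.22, adjusted p = 0.0398, limma). Bub1, a checkpoint kinase of the kinetochore, changed by 0.69 ± 0.21 (adjusted p = 0.0414) and Hmmr by 0.65 ± 0.18 (adjusted p = 0.0300, both in limma). In both genes S19 lay inside the Ikzf3 KO range. The chromosomal passenger scaffold Incenp, called in Ikzf1 KO, stood at 62.8, 57.0, 51.7 and 39.1 RPKM in Ikzf3 KO and 38.6, 31.1, 56.6 and 83.0 RPKM in Cre only, a difference of 0.09 ± 0.24 (adjusted p = 0.817, limma). Within Ikzf3 KO the libraries S3 and S4 stood apart from S1 and S2 in many genes outside this list, and granzyme B (Gzmb) was at 1840 and 1800 RPKM in them and at 9100 and 10600 RPKM in S1 and S2. Plk1 was lower in them too, at 40.1 and 30.9 RPKM, against 62.0 and 62.6 RPKM in S1 and S2, whereas Cenpa was higher in them. Without S3 and S4, 1 member, Cks2, was called and the median change was 0.60. With S16 and S17 removed no member passed in limma (median -0.01), and with S18 and S19 removed 30 did (median 0.86). Leaving out S19 alone gave 23 called, leaving out S3, S4, S16, S17 or S18 gave 2 each time, Cks2 and Cenpa, and leaving out S7, S12, S13, S14 or S15 gave 3 each. Shares of all genes called higher were 3.25% without S3 and S4 and 2.81% without S16 and S17. They were 3.94% without S18 and S19 and 4.88% without S19 alone. With S3, S4, S16, S17 or S18 left out alone the share was 3.36% to 3.69%. With S7, S12, S13, S14 or S15 left out alone it was 4.6% to 5.23%. Counts of 2 and 3 of 38 members thus lay near the background.

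The DKO comparison with Cre only asks what loss of both factors does, again with the same controls. In DKO, 5 members were higher, none was lower and 33 did not pass; over all genes tested, 8.06% were called higher and 10.6% lower. The median change was 0.49 on the log2 scale (-0.27 to 1.06), against 0 for all genes tested. An unadjusted p below 0.05 (limma) was found in 16 of 38 members and in 3212 of 10032 genes tested. Fitted with these 2 groups alone 2 passed, Cks2 and Mad2l1, and with library weights 17 did. Of all genes, 9.92% were called higher with these groups alone and 14.2% with library weights. The 5 members were Mad2l1, Nuf2, Cks2, Birc5 and Anln. Mad2l1, the checkpoint protein that binds Cdc20, stood at 18, 27.4 and 21.5 RPKM in DKO, against 9.83, 6.33, 10.1 and 17.9 RPKM in Cre only. The groups did not overlap, although S5 and S19 were close, and the change was 1.06 ± 0.29 (adjusted p = 0.0214, limma). Cks2 stood at 42.7, 58.8 and 47.6 RPKM in DKO, all above the Cre only values, with a change of 0.82 ± 0.21 (adjusted p = 0.0156, limma). Anln stood at 9.42, 8.97 and 9.28 RPKM in DKO, also above all Cre only values, with a change of 0.72 ± 0.21 (adjusted p = 0.0293, limma). These 3 members were the only ones whose DKO libraries all lay above Cre only, as in 16.1% of all genes tested.

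Nuf2, a subunit of the kinetochore complex that grips microtubules, changed by 0.86 ± 0.25 (adjusted p = 0.0274) and Birc5, survivin of the chromosomal passenger complex, by 0.81 ± 0.27 (adjusted p = 0.0480, both in limma). Nuf2 stood at 15.4, 21.7 and 17.8 RPKM in DKO, against 9.51, 6.26, 9.4 and 16.1 RPKM in Cre only, and S5 lay just below S19. Cdc20 stood at 74.6, 90.4 and 82.2 RPKM in DKO, with S19 at 86.2 RPKM inside that range, and did not pass (0.64, adjusted p = 0.0720, limma). The summed T cell markers were highest in the DKO libraries, as given above, and Cd3d, Cd3e and Cd3g carried that sum. Cd247 averaged 15.2 ± 2.45 RPKM in DKO and 21.5 ± 4.79 RPKM in Cre only (SD, n = 3 and n = 4), and Cd8a stayed at or below 0.0554 RPKM in DKO. Cd4 averaged 0.94 RPKM in DKO and 0.204 RPKM in Cre only, and Cd6 averaged 0.636 and 0.125 RPKM. The libraries of DKO and Cre only overlapped in Cd4 and in Cd6. Without S16 and S17 no member passed in DKO (median 0.06), and without S18 and S19, 34 did (median 0.87). Leaving out S19 alone gave 26 called, leaving out S6 gave none, leaving out S7, S17 or S18 gave 1 each time, Cks2, and leaving out S16 gave 2, Cks2 and Mad2l1. Without S3 and S4, 10 were called. Shares of all genes called higher were 5.06% without S16 and S17, 6.68% without S18 and S19, and 17% without S3 and S4. They were 8.55% without S19, 4.39% without S6, and 4.99%, 6.08%, 5.47% and 6.6% without S7, S17, S18 and S16. Counts of 1 or 2 of 38 members thus lay near or below the share of all genes.

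**Figure D4:**
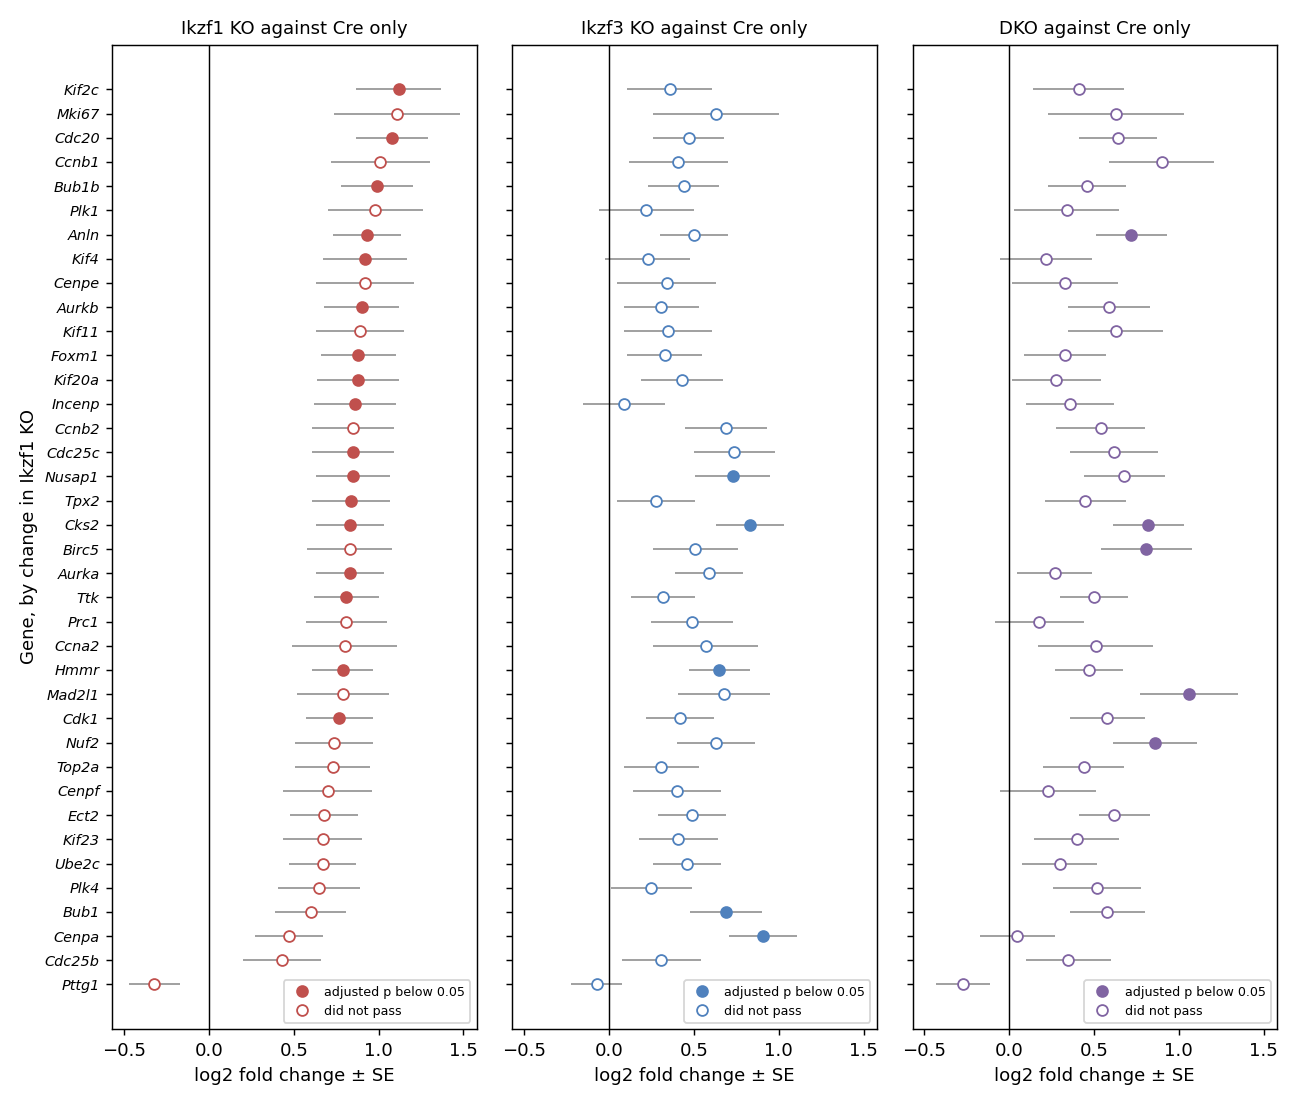
Log2 fold change with its SE for the 38 members in each knockout group against Cre only, in the order of the Ikzf1 KO values; filled points passed an adjusted p below 0.05. All members but Pttg1 lie to the right of 0 in Ikzf1 KO, with 17 filled, and 5 are filled in each of the other comparisons.

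The knockout groups were also set against each other, without the Cre only means. In DKO against Ikzf1 KO no member passed in limma, and over all genes tested 3.76% were called higher and 3.72% lower. An unadjusted p below 0.05 (limma) was found in 7 of 38 members and in 2193 of 10032 genes tested, a larger share. The median difference was -0.31 (-0.71 to 0.26), against -0.01 for all genes tested, and 35 of 38 were lower in DKO. In 22 members all DKO libraries lay below all Ikzf1 KO libraries, as in 17.3% of all genes tested. Kif2c stood at 15.7, 15.8 and 18.2 RPKM in DKO and at 24.9 to 30.1 RPKM in Ikzf1 KO, a difference of -0.71 ± 0.27 (adjusted p = 0.126, limma). Kif4, a chromosome-bound kinesin, stood at 12.5, 13.7 and 13.6 RPKM in DKO, against 22.2, 21.2, 22.3 and 22.1 RPKM in Ikzf1 KO, a difference of -0.71 ± 0.27 (adjusted p = 0.132, limma). These groups were far apart relative to their own spread, but the spread in the fit is shared with the Cre only libraries. Fitted with these 2 groups alone, 14 members were lower in DKO, and without S19 in the full fit 3 were, Kif2c, Kif4 and Foxm1. Of all genes, 9.86% were called lower with these groups alone and 3.57% without S19.

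In Ikzf1 KO against Ikzf3 KO, 2 members were higher, none was lower and 36 did not pass; over all genes tested 9.01% were called higher and 8.68% lower. The median difference was 0.34, against 0.03 for all genes tested. Incenp stood at 92.8, 83.3, 84.4 and 95.0 RPKM in Ikzf1 KO, against 62.8, 57.0, 51.7 and 39.1 RPKM in Ikzf3 KO (0.77 ± 0.24, adjusted p = 0.0384, limma). Kif2c averaged 27.4 ± 2.16 RPKM in Ikzf1 KO and 16.2 ± 3.08 RPKM in Ikzf3 KO (SD, n = 4 each), a difference of 0.76 ± 0.25 (SE, adjusted p = 0.0468, limma). In 18 members all Ikzf1 KO libraries lay above all Ikzf3 KO libraries, as in 13.7% of all genes tested. Neither call held without S3 and S4. No member was called when S3, S4, S7, S12, S13, S14 or S15 was left out alone. Leaving out S5, S6, S16 or S18 gave 1 call each time, Incenp, S2 gave 4, S17 gave 5, S1 gave 7 and S19 gave 10. Shares of all genes called higher were 16.1% without S2, 8.33% without S17, 17.1% without S1 and 8.8% without S19. They were 9.86%, 8.31%, 7.86% and 7.96% without S5, S6, S16 and S18. In DKO against Ikzf3 KO, 1 member, Cenpa, was lower and 37 did not pass; over all genes tested 10.2% were called higher and 9.85% lower. Cenpa stood at 24.4, 37.0 and 34.9 RPKM in DKO, below all the Ikzf3 KO values, as in 11.9% of all genes tested, with a change of -0.86 ± 0.22 (adjusted p = 0.0142, limma). That call was lost without S5, and without S3 and S4. The median member difference was 0.01.

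The departure from additivity, DKO minus Ikzf1 KO minus Ikzf3 KO plus Cre only on the log2 scale, asks whether the double deletion equals the sum of the single ones. It was negative for 37 of 38 members, with a median of -0.84, against 0 for all genes tested, so DKO lay below that sum. Of the members, 3 passed, all negative, and 35 did not pass. Over all genes tested 3.63% were called positive and 2.92% negative. An unadjusted p below 0.05 (limma) was found in 20 of 38 members and in 2098 of 10032 genes tested. Cenpa departed by -1.32 ± 0.30 (adjusted p = 0.0174, limma). Aurka departed by -1.16 ± 0.30 (adjusted p = 0.0325, limma), at 28.6, 32.7 and 32.0 RPKM in DKO, 49.3, 45.2, 48.7 and 42.0 RPKM in Ikzf1 KO, 40.7, 45.3, 30.7 and 40.7 RPKM in Ikzf3 KO, and 23.5, 17.1, 27.0 and 40.3 RPKM in Cre only. Aurka in DKO thus lay below every Ikzf1 KO library and inside the Cre only range. Hmmr departed by -0.98 ± 0.27 (adjusted p = 0.0434, limma). The Cre only mean enters this sum with a positive sign, and without S16 and S17 no member passed (limma; median -0.36), while without S18 and S19, 29 did. Leaving out S19 alone gave 21. Of all genes, 2.13% were called negative without S16 and S17, 3.08% without S18 and S19, and 2.86% without S19 alone. Leaving out S5, S6, S7, S12, S13, S14 or S16 gave 1 each time, Cenpa. The share of all genes called negative was then 1.47% to 2.4%, so 1 of 38 members lay near the background.

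Other mitosis genes were listed by name, with earlier results of these data known, and read in the same 15 libraries. Their counts stand beside the shares of all genes called higher, 3.54% in Ikzf1 KO, 6.3% in Ikzf3 KO and 8.06% in DKO. Of 25 tested, 13 were higher in Ikzf1 KO, 5 in Ikzf3 KO and 6 in DKO against Cre only, and none was lower in any of the 3. Spc24, which joins the same kinetochore complex as Nuf2, changed by 0.99 ± 0.20 in Ikzf1 KO (adjusted p = 0.00818), 0.73 ± 0.20 in Ikzf3 KO (adjusted p = 0.0269) and 0.86 ± 0.21 in DKO (adjusted p = 0.0115, all in limma). Melk, a kinase made in mitosis, changed by 0.92 ± 0.20 in Ikzf1 KO (adjusted p = 0.0145) and 1.13 ± 0.22 in DKO (adjusted p = 0.00287, both in limma). Melk stood at 26.4, 35.1 and 28.7 RPKM in DKO, above the 12.8, 8.9, 13.0 and 21.5 RPKM of Cre only. Pbk, another mitotic kinase, changed by 0.81 ± 0.21 in Ikzf3 KO (adjusted p = 0.0236) and 1.10 ± 0.23 in DKO (adjusted p = 0.00453, limma). Of 13 condensin and cohesin genes, 3 were higher in Ikzf1 KO, 2 in Ikzf3 KO and 1 in DKO, the last a share near that of all genes. Ncapg, a condensin subunit, was among them each time, at 0.73 in Ikzf1 KO (adjusted p = 0.0333), 0.64 in Ikzf3 KO (adjusted p = 0.0382) and 0.67 in DKO (adjusted p = 0.0340, all in limma). Of 13 subunits and activators of the anaphase promoting complex, 1 was higher in Ikzf1 KO, the coactivator Fzr1 (0.57 ± 0.14, adjusted p = 0.0246, limma). None was higher in Ikzf3 KO or DKO, where 2 and 1 had an unadjusted p below 0.05. Of all 10032 genes tested, 3418 and 3212 had one in those comparisons (limma). Of 14 genes of the DREAM and MuvB complexes, 1 was higher in Ikzf1 KO, Rbl1 or p107 (0.75 ± 0.18, adjusted p = 0.0241, limma), none in Ikzf3 KO (4 at an unadjusted p below 0.05 in limma) and 3 in DKO, among them the MuvB core subunit Lin9 (0.66 ± 0.17, adjusted p = 0.0160, limma).

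S phase genes parted from the mitotic ones in 2 libraries. The mean log2 level of 24 S phase and replication genes, relative to Cre only, was 0.64, 0.59, 0.53 and 0.67 in Ikzf1 KO and 0.31, 0.91 and 0.63 in DKO. In Ikzf3 KO it was 0.30 and 0.31 in S1 and S2 but -0.69 and -0.84 in S3 and S4, where the member level was still 0.34 and 0.36. Mcm2, a subunit of the replicative helicase, stood at 40.2 and 37.9 RPKM in S1 and S2 and at 8.25 and 4.93 RPKM in S3 and S4. In Cre only the S phase level was -0.05, -0.35, -0.17 and 0.57, with S17 lowest and S19 highest as for the members. No S phase gene passed in Ikzf1 KO or Ikzf3 KO against Cre only (limma), where 12 and 1 had an unadjusted p below 0.05. Of all 10032 genes tested, 1980 and 3418 had one in those comparisons (limma). In DKO 4 of 24 were higher, with Ccne2, cyclin E2, at 1.38 ± 0.29 (adjusted p = 0.00504) and Tyms, thymidylate synthase, at 1.31 (adjusted p = 0.0252, both in limma). In Ikzf1 KO against Ikzf3 KO 11 of 24 were higher, with Mcm7 at 0.96 ± 0.23 (adjusted p = 0.0120, limma). In DKO against Ikzf3 KO 7 of 24 were higher, with Mcm7 at 0.84 ± 0.25 (adjusted p = 0.0269, limma). The low levels of S3 and S4 enter both comparisons with Ikzf3 KO. Shares of all genes called higher were 8.06% in DKO against Cre only and 9.01% in Ikzf1 KO against Ikzf3 KO. In DKO against Ikzf3 KO the share was 10.2%.

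**Figure D5:**
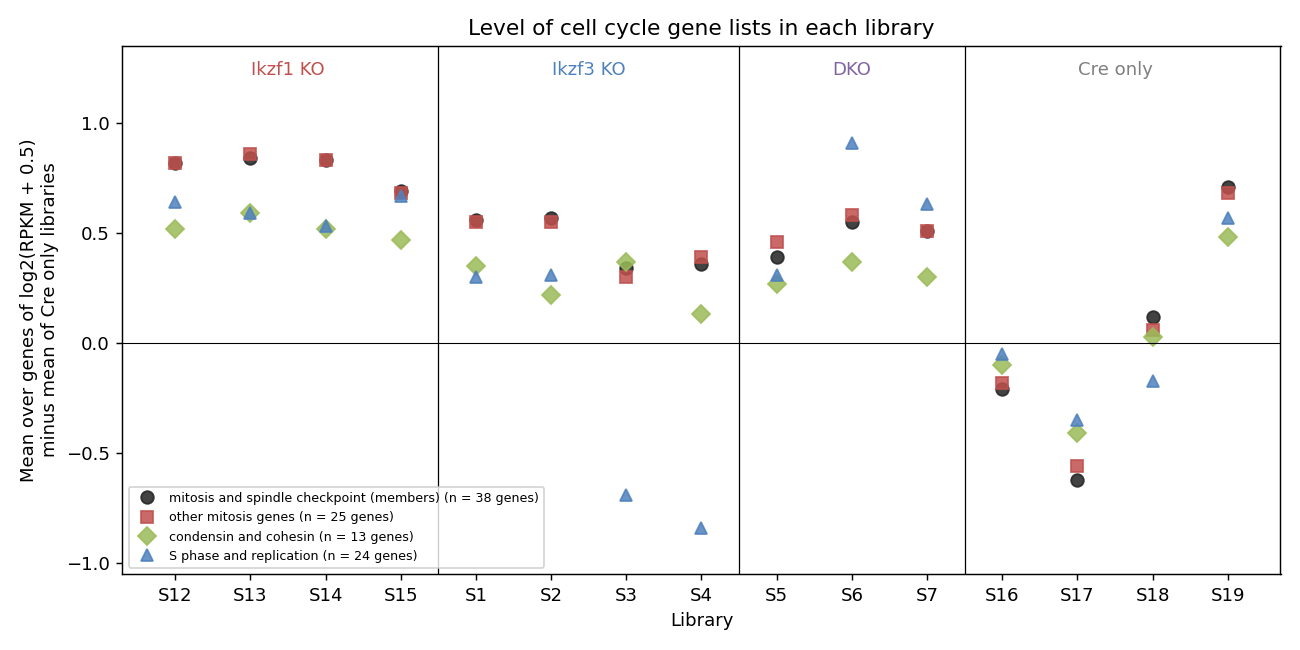
Mean log2 level of 4 cell cycle lists in each library, relative to the Cre only mean. Other mitosis genes track the members closely in all libraries, and the S phase list lies far below them in S3 and S4, at -0.69 and -0.84.

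Of 15 G1 cyclins, Cdk inhibitors and other brakes tested, 1 was higher and 1 lower in Ikzf1 KO against Cre only, 1 was higher and 4 were lower in Ikzf3 KO, and 1 was higher in DKO. Over all genes 3.54% were higher and 2.78% lower in Ikzf1 KO, 6.3% and 7.88% in Ikzf3 KO, and 8.06% were higher in DKO, so a count of 1 lies near the background. Gadd45a, a stress-induced inhibitor of growth, was higher in Ikzf1 KO (1.24 ± 0.26, adjusted p = 0.0101) and in DKO (1.00 ± 0.28, adjusted p = 0.0223, both in limma). Btg1, an antiproliferative gene of resting lymphocytes, was lower in Ikzf1 KO (-0.88 ± 0.21, adjusted p = 0.0242, limma). In Ikzf3 KO, Ccnd3, cyclin D3, was lower (-0.78 ± 0.17, adjusted p = 0.00854), Trp53 was lower (-0.98 ± 0.27, adjusted p = 0.0269), and Cdkn2d, an inhibitor of Cdk4 and Cdk6, was higher (1.06 ± 0.28, adjusted p = 0.0223, all in limma). S3 and S4 carried the Trp53 and Cdkn2d values: Trp53 stood at 45.9 and 50.8 RPKM in S1 and S2 and at 23.1 and 17.1 RPKM in S3 and S4, against 54.2 to 65.9 RPKM in Cre only. Cdkn2d stood at 56.4 and 64.1 RPKM in S1 and S2 and at 136 and 162 RPKM in S3 and S4, against 42.6 to 48.1 RPKM in Cre only.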

How the data were processed

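Messenger RNA of 15 cultured NK cell libraries was analysed. Per the submitters' processing notes, STAR, featureCounts, limma 3.34.9 and mm10 were used; settings, strand included, are not given in the sources used here. The authors deposited RPKM for 11736 genes. In 11291 genes (96.2%) values were whole reads within 0.02 read, with 34 of 38 members among them; the depths derived from them leave out the other genes. Replicate libraries differed by more than sampling noise (chi-square per degree of freedom 3.59 to 248). The 6 directly sorted samples were not analysed here.

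Genes of RPKM of at least 1 in at least 3 libraries (10032) were fitted as log2(RPKM + 0.5) by limma 3.58.1 under R 4.3.3, each group with its own mean, a variance trend, robust moderation and 11 residual degrees of freedom. Tests were 2-sided, and a gene was called at p below 0.05 after Benjamini-Hochberg adjustment over all genes tested. Fold changes on this scale understate those of low genes. The labels speak of biological replicates without saying what was separate, so p-values measure the spread between these libraries. The fit was tested on simulated data in which each gene had the same spread in every group and genes varied independently. The spread of the members differed between the groups here, so that test does not cover their calls. Other work used Python 3.11.15 (matplotlib 3.10.9, scipy 1.17.1, pandas 2.3.3, numpy 2.4.6).

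The members and lists were chosen with earlier results of these data known. Named with values were, per comparison, the 4 largest and 4 smallest called changes, the highest member per role, members whose groups do not overlap where 5 or fewer, and up to 3 genes of each other list; Mki67, Plk1, Kif4, Nuf2 and Pttg1 were shown in addition after their values were seen. Genes overlap others in GENCODE release M21 (Cdc20 with Elovl1, Plk1 with Gm44985, Nusap1 with Oip5, Incenp with AC132253.8), and reads there may be shared.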

Additional observations from a re-analysis of the deposited data

Results flagged for a closer look

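In 5 of 114 gene groups of 4 libraries checked, 1 library stood apart from its group, and chance flags about 1 in 20. Within Ikzf1 KO, S15 was low for Ccnb1 (27.3 RPKM), Ect2 (20.5 RPKM) and Anln (8.81 RPKM), and S12 was high for Foxm1 (20.1 RPKM). Within Cre only, S19 was high for Cks2 (41.3 RPKM).

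The effect of losing Ikaros and Aiolos together differed from the sum of the single losses, in limma's test of that difference, for Cenpa (-1.32 on the log2 scale), Aurka (-1.16) and Hmmr (-0.98). Each rests on the same Cre only libraries, and without S16 and S17 none of the 3 passed.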

How the results depend on the processing

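The pseudocount (1 or 0.1), no filter on low values and median-ratio scaling kept every count of members called within 1.5 times, and in no alternative did a called member change direction. Counts are members called, in the order Ikzf1 KO, Ikzf3 KO and DKO against Cre only, where the reported counts were 17, 5 and 5. As reported, 3.54%, 6.3% and 8.06% of all genes were called higher. Quantile normalization gave 24, 6 and 10 higher, library weights (which did not fully converge) 37, 32 and 17, with 1 member, Pttg1, lower in Ikzf1 KO. Of all genes, quantile normalization called 3.77%, 6.75% and 8.83% higher, and library weights 18%, 9.84% and 14.2%. Omitting S3 and S4 gave 29, 1 and 10, omitting S16 and S17 gave 0, 0 and 0, and omitting S18 and S19 gave 36, 30 and 34. Shares of all genes called higher were 8.57%, 3.25% and 17% without S3 and S4. They were 2.28%, 2.81% and 5.06% without S16 and S17, and 3.78%, 3.94% and 6.68% without S18 and S19. Fitting only the groups compared gave 17 (and 1 lower), 0 and 2, with 9.26%, 1.93% and 9.92% of all genes called higher. A shared term for S5, S15, S18 and S19, which stood together in an earlier analysis, without Ikzf3 KO, gave 33 in Ikzf1 KO and 10 in DKO. That term also called 10.1% and 18.1% of all genes higher.

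In DKO against Ikzf1 KO, where none was called, 4 were lower without S16 and S17, 6 without S18 and S19, 14 with only these groups and 1 with that shared term. Shares of all genes called lower were 3.56%, 3.78%, 9.86% and 15.1% in that order. In DKO against Ikzf3 KO the 1 lower call became 0 with library weights, on dropping S3 and S4, and with only these groups. Of all genes, 9.36%, 9.43% and 3.35% were then called lower. In Ikzf1 KO against Ikzf3 KO the 2 higher calls became 6 with library weights, 0 without S3 and S4, 10 on dropping S16 and S17, 11 on dropping S18 and S19, and 8 with only these groups. Shares of all genes called higher were 15.9%, 6.54%, 7.73%, 8.31% and 5.4% in that order. The 3 negative departures from additivity became 22 with library weights, 4 on dropping S3 and S4, 0 on dropping S16 and S17 and 29 on dropping S18 and S19. Of all genes, 7.24%, 4.08%, 2.13% and 3.08% were called negative in that order. The cause of these shifts was not tested.

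Leaving out 1 library at a time, members called higher numbered 4 to 35 in Ikzf1 KO, 2 to 23 in Ikzf3 KO and 0 to 26 in DKO against Cre only, with median changes of 0.62 to 1.08, 0.26 to 0.68 and 0.28 to 0.70. Shares of all genes called higher ranged from 1.93% to 4.71%, 3.36% to 14.1% and 4.39% to 10.3%. Members called lower numbered 0 to 3 in DKO against Ikzf1 KO and 0 to 1 in DKO against Ikzf3 KO. In Ikzf1 KO against Ikzf3 KO 0 to 10 were higher and 0 to 1 lower (Cenpa, without S1), and departures numbered 1 to 21, with medians of -1.04 to -0.60. The shared term could not be fitted for contrasts with Ikzf3 KO. No paired analysis was possible because the columns carry no replicate numbers. With as few as 138 reads for a member in a library, depth can add to the spread of the weaker members.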
